A study of Homo sapiens with 40 samples.

Results

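The actin group described here comprised 10 genes out of the 60279 in each deposited count table. It held 4 actins (ACTB, ACTG1, ACTA2, ACTG2), 2 actin crosslinkers (ACTN1, ACTN4) and 4 proteins that bind actin monomers or take filaments apart (CFL1, PFN1, TMSB10, TMSB4X). The genes were chosen by the measured values of ACTB, one of the genes with the most reads in Takara cells, and of ACTA2, which had reads mostly in Takara cells, so the differences between protocols are given as descriptions. The data were single cells of T47D, a line of luminal breast cancer, at passage 10 with no treatment named in the labels, sorted on EpCAM and CD49f as the study's methods state. The transcripts were copied with the G&T protocol in 13 cells, the Takara SMART-seq HT kit in 13 cells and the NEB kit in 14 cells, of which 11 cells of each protocol passed the quality thresholds of the study. In G&T the RNA is first separated from the genomic DNA of the cell on beads, in Takara the reverse transcription and amplification take place in 1 step, and the NEB kit uses a template switching oligo without the locked nucleic acid of the other protocols. Each protocol had 1 sequencing run, as the study's methods state, and the number of plates is not given. A protocol is therefore 1 sample, a protocol and its run cannot be told apart, and no p-value is given.

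Actin is the protein of the thin filaments that shape the cell cortex, carry protrusions and anchor cell contacts. Filaments grow from a pool of monomers, which thymosins hold in reserve and profilin hands to growing ends, while cofilin severs old filaments and returns their subunits to the pool. α-Actinins tie filaments into bundles. Epithelial cells use the β- and γ-cytoplasmic actins, and the smooth muscle actins are best known from contractile cells such as myoepithelium, vessel wall and activated fibroblasts.

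The 4 actins and the pair of thymosins are close relatives at the DNA level, and this similarity bears on whether a short read can be placed on 1 of them. The first 90 coding bases of the actins are shown for that reason, written 5′ to 3′ from GENCODE release 44 on GRCh38, with capitals at bases that differ from ACTB or have no partner in it.
ACTB: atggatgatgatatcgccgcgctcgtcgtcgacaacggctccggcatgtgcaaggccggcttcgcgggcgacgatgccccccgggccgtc
ACTG1: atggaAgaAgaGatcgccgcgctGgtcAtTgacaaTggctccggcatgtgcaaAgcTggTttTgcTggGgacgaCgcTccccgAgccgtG
ACTA2: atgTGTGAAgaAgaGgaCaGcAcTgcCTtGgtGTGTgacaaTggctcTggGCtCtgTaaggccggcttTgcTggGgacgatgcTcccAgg
ACTG2: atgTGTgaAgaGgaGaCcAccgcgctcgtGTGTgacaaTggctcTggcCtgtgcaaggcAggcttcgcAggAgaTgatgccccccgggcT
Over the whole aligned coding sequence ACTB and ACTG1 were identical at 91.2% of bases and differed at 99. ACTB was 82.2% identical to ACTA2 and 84.3% to ACTG2, and ACTA2 and ACTG2 were 85.0% identical. The coding sequences of the thymosins are short enough to show whole, with capitals where TMSB4X differs from TMSB10.
TMSB10: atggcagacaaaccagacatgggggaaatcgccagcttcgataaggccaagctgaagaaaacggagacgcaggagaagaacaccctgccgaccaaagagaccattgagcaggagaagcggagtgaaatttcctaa
TMSB4X: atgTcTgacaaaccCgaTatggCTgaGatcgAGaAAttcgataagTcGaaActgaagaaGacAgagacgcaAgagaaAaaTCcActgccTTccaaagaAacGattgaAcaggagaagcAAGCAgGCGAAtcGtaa
The thymosins were identical at 72.6% of 135 coding bases, and the crosslinkers ACTN1 and ACTN4 at 82.5% of their aligned bases. A larger source of shared sequence lay outside the family pairs. Of all 64-base stretches of the TMSB4X transcript, 60.3% also occurred elsewhere in the genome, against 13.3% for PFN1, 9.89% for ACTB, and between 0% and 1.34% for the other 7 genes. The study sequenced read pairs, which can span more bases than 1 such stretch, so these shares are not shares of reads. Reads that aligned to several places made up 3.44% to 5.08% of all reads in kept G&T cells, 3.34% to 4.06% in Takara and 2.47% to 3.10% in NEB. The gene counts of STAR leave out such reads, so the levels of TMSB4X, PFN1 and ACTB are uncertain. How many of the lost reads belonged to these genes was not tested. The annotated pseudogenes named after the 10 genes held few reads. Their sum was at most 0.581% of the parent gene in every case except the CFL1 pseudogenes in NEB, which reached 4.13%. TMSB4XP8 held the most, with 516 reads over the 3 protocols.

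Kept libraries held 672328 to 1192383 reads in G&T, 827663 to 1297218 in Takara and 720899 to 1021613 in NEB, counting genes and ERCC spike-ins. NEB cells had fewer genes detected (4416 to 6719) than G&T (9541 to 12794) or Takara cells (10624 to 11855), and more of their reads on ERCC (5.66% to 18.9%, against 1.37% to 2.75% and 0.538% to 1.33%). All 7 luminal epithelial markers fixed for this line, such as KRT8, GATA3 and ESR1, had reads in each protocol. Levels below are CPM, reads scaled to a fixed total of reads on genes, pooled over the 11 kept cells unless a cell is named, and the 95% intervals are exact Poisson intervals that cover counting error only.

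The 10 genes together took a share of the reads on genes that was 2.82% for Takara, 2.11% for G&T and 0.882% for NEB. Per kilobase of the main transcript, TMSB4X had the highest pooled level of the group in all 3 protocols. The order depends on the length used, since per kilobase of all annotated exons ACTB (3692) led TMSB4X (3301) in Takara, TMSB10 (2546) stood above ACTB (1198) in G&T, and TMSB10 (687) above PFN1 (651) in NEB. On the main transcript, TMSB4X stood in G&T at 18362 CPM per kb, ahead of ACTB at 2913, TMSB10 at 2546, ACTG1 at 1045, PFN1 at 539 and CFL1 at 455. The actinins followed at 26.2 (ACTN1) and 25.2 (ACTN4), and ACTA2 was at 1.17. Most neighbours in that order differed by less than the larger SD between cells, with TMSB4X over ACTB, CFL1 over ACTN1 and ACTN4 over ACTA2 as the exceptions. In Takara, TMSB4X (9037 CPM per kb) and ACTB (8974) lay within the cell spread of each other, and ACTB exceeded ACTG1 (1680) in 11 of 11 cells. CFL1 (1232), PFN1 (1184), TMSB10 (511), ACTN1 (77.9), ACTA2 (22.9) and ACTN4 (2.19) came next in Takara, where ACTG1 and CFL1, CFL1 and PFN1, and ACTA2 and ACTN4 did not differ beyond their spread. In NEB, PFN1 (1290 CPM per kb) and ACTB (963) followed TMSB4X (7944) and did not differ beyond their spread, then came TMSB10 (687), ACTG1 (318), CFL1 (124), ACTN1 (1.72) and ACTN4 (0.327). ACTB and TMSB10, ACTG1 and CFL1, and ACTN1 and ACTN4 also lay within the spread between NEB cells.

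**Figure D1:**
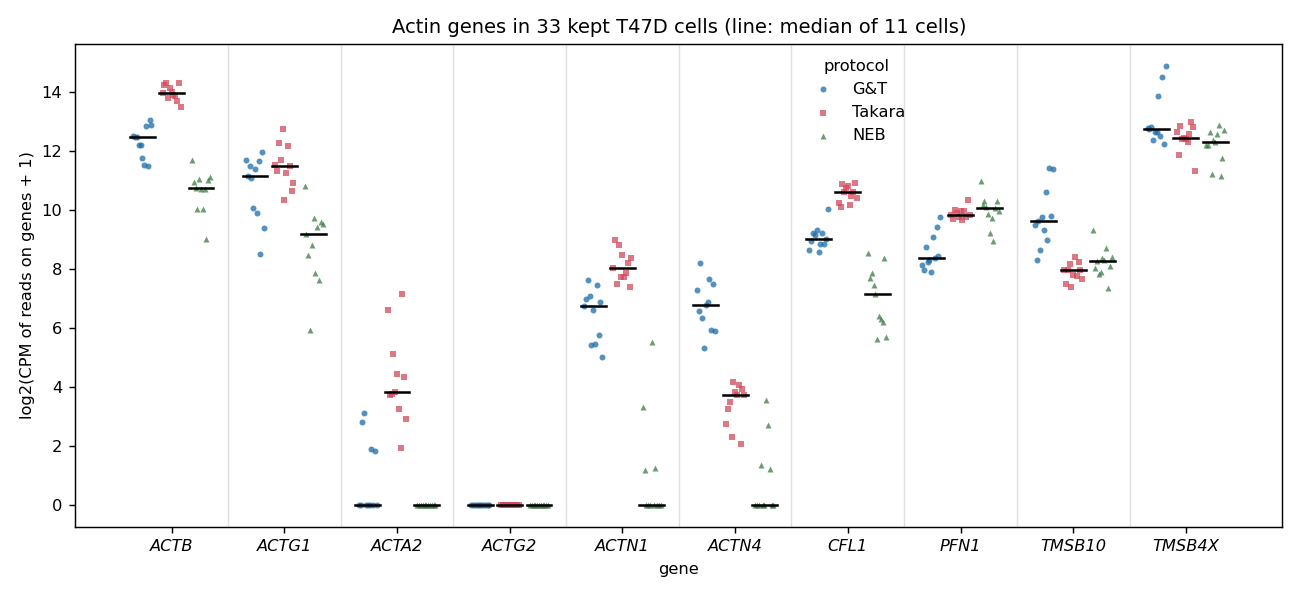
Each point is 1 kept cell, plotted as log2 of CPM plus 1 for each gene, with a black line at the median of the 11 cells of a protocol. ACTB of all Takara cells lies above all G&T cells, ACTN4 shows the opposite order, ACTG2 is at 0 throughout, and 3 G&T cells stand apart for TMSB4X.

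Comparing Takara with G&T asks how the kit and the manual protocol differ for the actin genes. Of the 10 genes, 9 passed the filter of 5 CPM in the mean of the 3 pooled levels and ACTG2 did not. ACTA2 passed only through its Takara level and ACTN4 only through its G&T level, so the counts that follow describe the selection and are not support for it. ACTB, ACTA2, ACTN1, CFL1 and PFN1 were past 2-fold in favour of Takara, 5 of 9 genes, where 19.2% of all 9831 genes were. ACTN4, TMSB10 and TMSB4X were past 2-fold in favour of G&T, 3 of 9, where 18.2% of all genes were. Takara and G&T cells did not overlap for ACTB and CFL1, higher in Takara (1.88% of all genes), and for ACTN4, higher in G&T (0.977% of all genes). The median log2 ratio of the 9 genes was 1.13, and that of all genes was 0.07.

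Against NEB, 6 of 9 genes were past 2-fold in favour of Takara (ACTB, ACTG1, ACTA2, ACTN1, ACTN4, CFL1), beside 40.9% of all genes, and 0 in favour of NEB, beside 23.5%. Cells of Takara and NEB did not overlap for 4 genes higher in Takara, ACTB, ACTA2, ACTN1 and CFL1 (11.3% of all genes), and for 0 higher in NEB (2.22%). G&T was past 2-fold over NEB in 8 of 9 genes, beside 40.6% of all genes, and PFN1 was the 1 gene past 2-fold in favour of NEB, beside 21.1%. ACTN4 and CFL1 had G&T cells that all lay above the NEB cells (4.83% of all genes), and 0 genes had the opposite pattern (1.55%). Median log2 ratios were 2.40 for Takara over NEB and 1.72 for G&T over NEB, with 0.43 and 0.47 over all genes. The 3 comparisons share cells, and the genes were chosen on these contrasts, so nothing is read from the distance to those percentages.

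**Figure D2:**
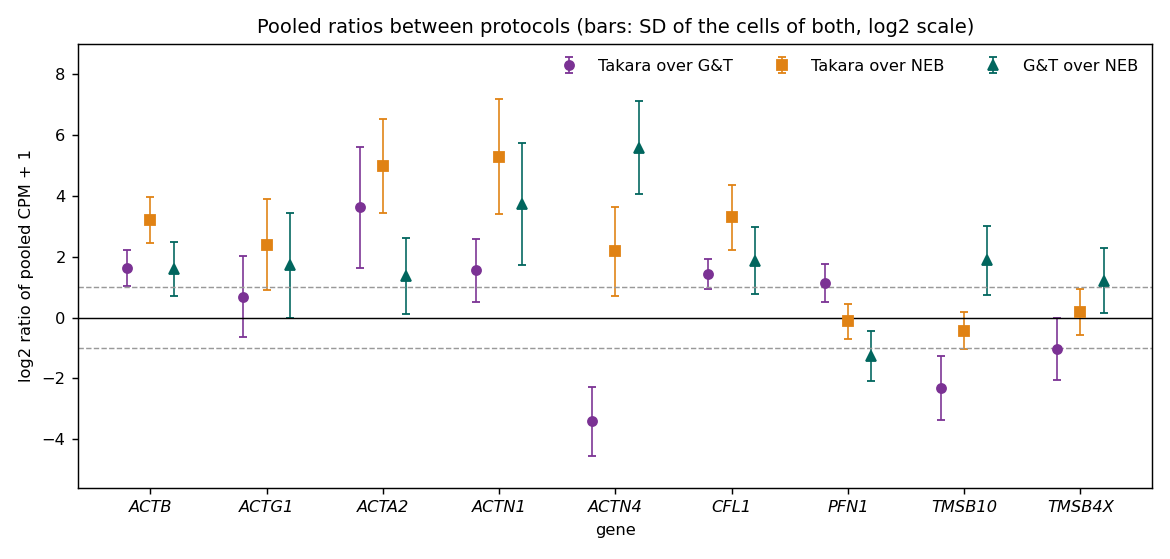
Points are log2 ratios of pooled CPM plus 1 for each gene and pair of protocols, bars are the SD of the cells of both protocols combined on the log2 scale, and dashed lines mark 2-fold. ACTB, ACTG1, ACTA2, ACTN1 and CFL1 are above 0 in all 3 pairs, whereas ACTN4 falls to -3.41 for Takara over G&T and PFN1 to -1.26 for G&T over NEB.

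ACTB (ENSG00000075624; GRCh38 chromosome 7, 5526409 to 5563902, minus strand) encodes β-actin, the main cytoplasmic actin and a common reference gene. It was highest in Takara, where single cells ranged from 11538 to 20156 CPM with a median of 15764. G&T cells ranged from 2877 to 8449 CPM (median 5613) and NEB cells from 512 to 3289 CPM (median 1691). All Takara cells thus lay above all cells of the other protocols, and the ranges of G&T and NEB overlapped slightly. Pooled over cells, ACTB reached 16262 CPM for Takara (95% interval 16189 to 16335), 5279 CPM for G&T (5233 to 5325) and 1744 CPM for NEB (1715 to 1774), which made it the gene of rank 3, 10 and 50 by reads. Takara was 3.08-fold above G&T (log2 ratio 1.62, SD between cells 0.59) and 9.32-fold above NEB (log2 ratio 3.22, SD 0.76). G&T was 3.03-fold above NEB (log2 ratio 1.60, SD 0.90).

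ACTG1 (ENSG00000184009; chromosome 17, 81509413 to 81523847, minus strand) encodes γ-actin, the other cytoplasmic isoform. G&T cells ranged from 360 to 3957 CPM (median 2261), Takara cells from 1279 to 6896 CPM (median 2887) and NEB cells from 59.7 to 1776 CPM (median 573). The ranges of all 3 protocols overlapped, and the spread was wide in each. Takara over G&T had a log2 ratio of 0.68, below its SD between cells of 1.33, so the 2 protocols differed by less than their cells did. Takara over NEB was 2.40 (SD 1.5) and G&T over NEB 1.72 (SD 1.72) on the same scale. ACTB held more reads than ACTG1 in 11 of 11 cells of every protocol. The G&T cells put 72.5% of the reads on both genes on ACTB (95% exact binomial interval 72.1% to 72.8%), the Takara cells 83.5% (83.3% to 83.6%) and the NEB cells 74.1% (73.5% to 74.7%). Across cells that share ran from 56.5% to 91.8% in G&T, from 72.1% to 92.8% in Takara and from 64.9% to 94.6% in NEB. The difference of the pooled shares between Takara and G&T was close to the SD between G&T cells of 10.7 percentage points, and the ranges of the cells overlapped.

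ACTA2 (ENSG00000107796; chromosome 10, 88935074 to 88991339, minus strand) encodes the α-actin of smooth muscle. It had reads in 11 of 11 Takara cells, 4 of 11 G&T cells and 0 of 11 NEB cells. Takara cells ranged from 2.80 to 141 CPM with a median of 13.2, and the highest were E2 with 134 reads (141 CPM) and A1 with 86 reads (97.3 CPM). These 2 cells held more than the other 9 together, and without them the pooled Takara level went from 30.9 CPM (27.8 to 34.2) to 14.4 CPM, an alternative chosen after seeing the data. The 4 G&T cells with reads, B1, B2, E1 and G1, held 6, 5, 2 and 2 reads, a pooled level of 1.58 CPM (0.884 to 2.60). A count of 0 in NEB allows up to 0.376 CPM. Set over that limit, the lower ends of the intervals gave 73.9-fold for Takara (32.2-fold without A1 and E2) and 2.35-fold for G&T (1.29-fold without B1). The exact Poisson upper end for NEB was 0.463 CPM, which would make these folds lower. They cover counting error only and are descriptions, since ACTA2 was chosen for its reads in Takara. Takara over G&T was 19.6-fold, with a log2 ratio of 3.63 and an SD between cells of 1.99.

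ACTG2 (ENSG00000163017; chromosome 2, 73892314 to 73919865, plus strand), the γ-actin of smooth muscle, had 0 reads in all 33 cells, which allows up to 0.316, 0.256 and 0.376 CPM for G&T, Takara and NEB. The skeletal and cardiac muscle actins ACTA1 and ACTC1 also had 0 reads. A list of 13 smooth muscle, myoepithelial and fibroblast markers had 10 genes with reads over the G&T cells, 8 over the Takara cells and 3 over the NEB cells. Its summed level per cell ranged from 1.52 to 65.6 CPM in G&T, from 5.65 to 55.7 CPM in Takara and from 0 to 128 CPM in NEB, so it did not rank the protocols as ACTA2 did. TAGLN and CNN1, 2 of the 13 markers, were at 0 in G&T and NEB. In Takara TAGLN had 8 reads, in cells D1 and H1, and CNN1 had 13 reads, in cells C1 and E1, none of them the pair of cells with the most ACTA2 reads. MYLK, VIM and COL1A1 were the markers with reads in all 3 protocols, at 8.63, 1.26 and 12.0 CPM in G&T, 5.89, 2.13 and 12.6 CPM in Takara and 3.14, 18.1 and 10.8 CPM in NEB. The 144 VIM reads of NEB lay in 3 cells. MYH11, TP63 and PDGFRB had reads in G&T and Takara, and DES, KRT5, KRT14 and COL1A2 in G&T alone, each at most 3.37 CPM. Unlike ACTA2, MYH11 was higher in G&T, with 32 reads in 8 cells, than in Takara, with 4 reads in 2 cells. The ACTA2 annotation shares 36.2% of its exon bases with other genes, among them FAS and the antisense gene ACTA2-AS1 on the opposite strand. FAS, a death receptor, stood at 62.0, 104 and 72.5 CPM in G&T, Takara and NEB, and in the Takara cells A1 and E2 at 335 and 86.1 CPM. STAMBPL1, whose span also crosses ACTA2 but which shares no exon base with it, was at 4.42, 3.50 and 34.1 CPM, and ACTA2-AS1 had 0 reads. Whether the counting used strand is not stated. Without strand, the gene counts of STAR leave reads in exon bases shared with FAS or ACTA2-AS1 as ambiguous and give them to neither gene. Ambiguous reads made up 7.04% to 10.5% of all reads in kept G&T cells, 10.0% to 11.2% in Takara and 5.41% to 6.06% in NEB. How many of them came from ACTA2 was not tested.

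ACTN1 (ENSG00000072110; chromosome 14, 68874128 to 68979440, minus strand) and ACTN4 (ENSG00000130402; chromosome 19, 38647649 to 38731589, plus strand) encode the α-actinins of non-muscle cells, which bundle filaments in stress fibres and at adhesions. ACTN1 ranged from 166 to 507 CPM in Takara cells (median 262) and from 31.1 to 197 CPM in G&T cells (median 107). Only the upper end of the G&T range reached into the Takara range, with Takara higher in 118 of 121 pairs of cells. In NEB 4 of 11 cells had reads, and D1 held 43 of the 51. Takara had a pooled level of 290 CPM (280 to 300), G&T of 97.5 CPM (91.3 to 104) and NEB of 6.40 CPM (4.76 to 8.41). Log2 ratios were 1.56 (SD 1.04) for Takara over G&T, 5.30 (SD 1.89) for Takara over NEB and 3.73 (SD 2.02) for G&T over NEB, and the last 2 became 7.09 and 5.52 without the NEB cell D1.

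ACTN4 went the other way between Takara and G&T. G&T cells ranged from 38.8 to 291 CPM (median 109) and Takara cells from 3.15 to 17.1 CPM (median 12.1). No Takara cell reached the lowest G&T cell. In NEB 4 of 11 cells had reads, 13 in all, and the highest was D2 at 10.6 CPM. G&T had a pooled level of 126 CPM (119 to 133), Takara of 10.9 CPM (9.11 to 13.0) and NEB of 1.63 CPM (0.868 to 2.79). G&T was 11.5-fold above Takara (log2 ratio of Takara over G&T -3.41, SD 1.13), while its log2 ratio over NEB was 5.59 (SD 1.54) and that of Takara over NEB 2.18 (SD 1.46). ACTN1 accounted for 43.7% of the reads on both crosslinkers in G&T (41.6% to 45.8%) and for 96.4% in Takara (95.7% to 97.0%). In single cells this share ran from 26.9% to 62.9% in G&T and from 92.1% to 99.1% in Takara, so the ranges did not meet. The NEB share of 79.7% rested on 64 reads in 7 cells, which ran from 0% to 100% with a median of 20.0%. ACTN1 was the higher gene in 3 of these 7 cells, and without cell D1, an alternative chosen after seeing the data, the share was 38.1% on 21 reads (18.1% to 61.6%), which turns its direction. Of the exon bases of ACTN4, 14.2% are shared with other genes, mainly CAPN12 on the opposite strand, which had 1 read in G&T and 0 in the other protocols.

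**Figure D3:**
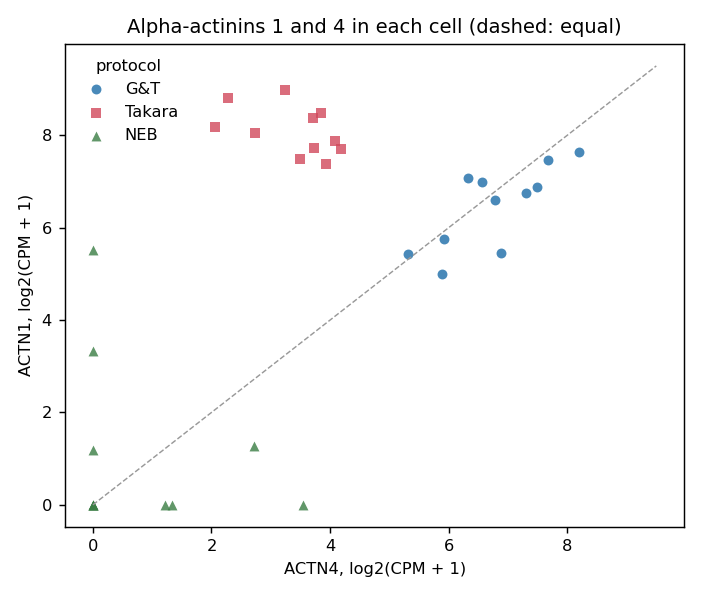
Each point is 1 kept cell, with ACTN4 on the horizontal and ACTN1 on the vertical axis, both as log2 of CPM plus 1. G&T cells lie along the dashed line of equal levels, where ACTN1 exceeded ACTN4 in 3 of 11 cells, Takara cells lie above it in 11 of 11, and NEB cells have few reads on either gene.

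CFL1 (ENSG00000172757; chromosome 11, 65823022 to 65862026, minus strand) encodes cofilin 1, which severs filaments and depolymerises their ends. Takara cells ranged from 1093 to 1930 CPM (median 1542), G&T cells from 382 to 1046 CPM (median 518) and NEB cells from 47.7 to 366 CPM (median 141). The 3 ranges did not overlap, which held for no other gene of the 10. The log2 ratio was 1.44 (SD 0.49) for Takara over G&T, 3.30 (SD 1.07) for Takara over NEB and 1.87 (SD 1.11) for G&T over NEB. MUS81 on the opposite strand and SNX32 share exon bases with CFL1, 19.0% of its exon length in all with any other gene, and MUS81 stood at 47.2, 54.5 and 1.25 CPM in G&T, Takara and NEB.

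PFN1 (ENSG00000108518; chromosome 17, 4945652 to 4949061, minus strand) encodes profilin 1, which loads monomers onto growing filament ends. It was the gene of the group with its highest pooled level in NEB, at 1041 CPM (1019 to 1064), next to 955 CPM for Takara (938 to 973) and 435 CPM for G&T (421 to 448). NEB cells ranged from 496 to 2011 CPM (median 1063), Takara cells from 803 to 1296 CPM (median 900) and G&T cells from 234 to 865 CPM (median 327). Takara lay inside the NEB range, with a log2 ratio over NEB of -0.12 against an SD of 0.58, and the G&T range overlapped both. Takara over G&T was 1.13 (SD 0.64) and G&T over NEB was -1.26 (SD 0.82) on the log2 scale. PFN1 and ACTB thus ranked the 3 protocols differently.

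The thymosins bind actin monomers and keep them from joining filaments. TMSB4X (ENSG00000205542; chromosome X, 12975110 to 12977227, plus strand) had a median of 6754 CPM over G&T cells, 5521 CPM over Takara cells and 5000 CPM over NEB cells. As ratios, though not in CPM, these medians were closer to each other than those of the other genes of the group with reads in all 3 protocols. Takara cells ranged from 2530 to 8062 CPM and NEB cells from 2289 to 7438 CPM. In G&T 8 cells lay between 4792 and 7224 CPM, while D2, E2 and H1 were at 14904, 23096 and 30036 CPM. These 3 cells raised the pooled G&T level to 11421 CPM (11353 to 11489), against 5621 CPM for Takara (5578 to 5664) and 4941 CPM for NEB (4892 to 4990). Takara over G&T had a log2 ratio of -1.02 (SD 1.02), which passed 2-fold narrowly and no longer did so without D2 (-0.96), E2 (-0.85) or H1 (-0.73) of G&T or A2 (-0.97) or H1 (-0.93) of Takara. Without all 3 of the G&T cells, an alternative chosen after seeing the data, it was -0.15. G&T over NEB was 1.21 (SD 1.07), 0.92 without H1 and 0.34 without all 3. Takara over NEB was 0.19 (SD 0.75).

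TMSB10 (ENSG00000034510; chromosome 2, 84905656 to 84906671, plus strand) was higher in G&T, where cells ranged from 311 to 2718 CPM (median 787). Takara cells ranged from 168 to 340 CPM (median 246) and NEB cells from 163 to 638 CPM (median 307). The G&T range reached down into that of both other protocols. The pooled level of G&T was 1174 CPM (1152 to 1196), that of Takara 236 CPM (227 to 245) and that of NEB 317 CPM (305 to 329), with log2 ratios of -2.31 (SD 1.06) for Takara over G&T, 1.89 (SD 1.14) for G&T over NEB and -0.43 (SD 0.59) for Takara over NEB. The cells D2, E2 and H1 were again the highest of G&T, at 1537, 2718 and 2647 CPM, while the other 8 did not exceed 874 CPM. Without these 3 cells the log2 ratio of Takara over G&T was -1.47 and that of G&T over NEB was 1.05, both past 2-fold. The same 3 cells were the lowest of G&T in ACTG1 (948, 360 and 670 CPM) and the highest in PFN1 (535, 680 and 865 CPM). They also had the fewest genes detected of the kept G&T cells (9541 to 10831, against 11102 to 12794 in the other 8) and the highest share of ERCC reads (2.16% to 2.75%, against 1.37% to 2.11%). The part of these properties in the levels was not tested. Of the reads on both thymosins, TMSB4X took 96.0% in Takara cells (95.8% to 96.1%), 94.0% in NEB cells (93.7% to 94.2%) and 90.7% in G&T cells (90.5% to 90.8%). TMSB10 shared no 64-base stretch with the rest of the genome, in contrast to TMSB4X.

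**Figure D4:**
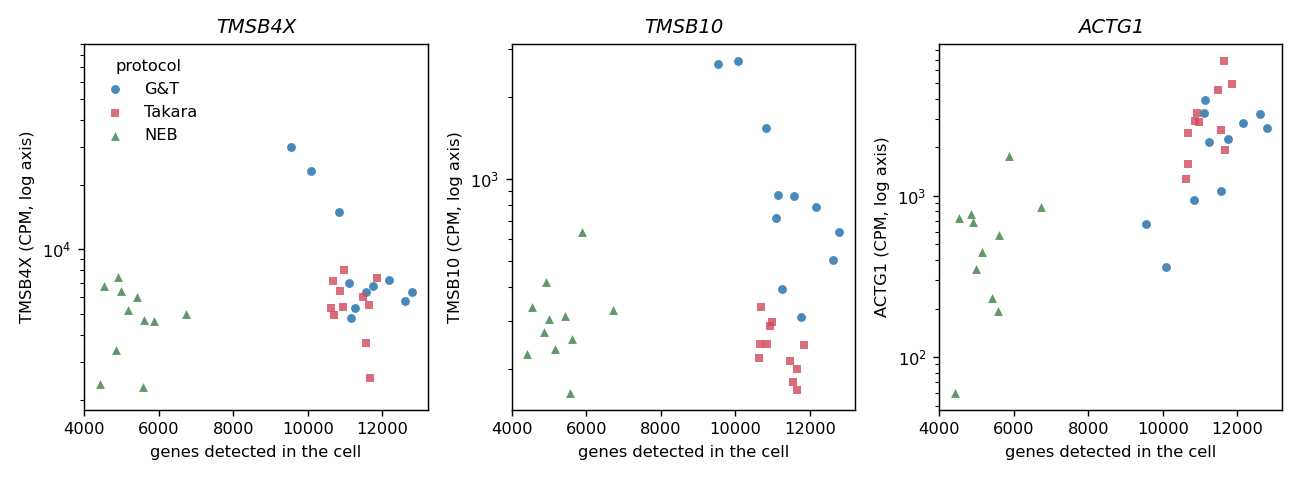
Each point is 1 kept cell, with the number of genes detected in the cell on the horizontal axis and the CPM of the gene on a log vertical axis. The 3 G&T cells with fewest genes detected are the highest in TMSB4X and TMSB10 and the lowest G&T cells in ACTG1.

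The spread between cells was smallest in Takara for all 6 genes that had reads in every kept cell (ACTB, ACTG1, CFL1, PFN1, TMSB10, TMSB4X), and 76.4% of the 1288 such genes had their lowest coefficient of variation in Takara. For ACTB it was 17.4% over Takara cells, against 34.9% over G&T cells and 42.0% over NEB cells. For PFN1 it was 14.4%, 48.5% and 37.6%, and for TMSB4X 28.4%, 79.0% and 34.5%. Over the 1288 genes the Takara cells had a median of 30.2%, the G&T cells of 47.8% and the NEB cells of 53.0%, so ACTG1, at 51.9%, lay above the Takara median and the other 5 genes lay below it.

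Within a protocol the 6 genes were only loosely related over the 11 cells, which share a library preparation and whose levels share a denominator. The 15 pairs had a median Spearman coefficient of 0.03 over G&T cells, 0.25 over Takara cells and 0.24 over NEB cells, with extremes of -0.62 and 0.84. CFL1 and PFN1 had the highest mean coefficient of the pairs, with 0.43, 0.77 and 0.84 in the 3 protocols. TMSB10 and TMSB4X followed with 0.57, 0.37 and 0.61. ACTB and ACTG1 had 0.58, 0.10 and 0.67, and PFN1 and TMSB4X ran from 0.55 in G&T to -0.51 in NEB. Among the other 1287 genes with reads in every cell, those most like ACTB by the mean of the 3 coefficients were STT3A (0.63), STRAP (0.56) and ARNT (0.55). ACTG1 ranked 8 and CFL1 ranked 13, whereas TMSB4X ranked 423 and TMSB10 ranked 533.

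The wider actin machinery was examined with lists of 74 other genes, of which 60 passed the filter. Between Takara and G&T 9 genes were past 2-fold in favour of Takara (19.2% over all genes) and 7 in favour of G&T (18.2%). The cells overlapped for all 60, while 1.88% of all genes had cells apart in favour of Takara and 0.977% in favour of G&T. Between Takara and NEB 21 were past 2-fold in favour of Takara (40.9%) and 11 in favour of NEB (23.5%). Cells did not overlap for 7 genes higher in Takara (11.3% over all genes) and 2 higher in NEB (2.22%). Between G&T and NEB 29 were past 2-fold in favour of G&T (40.6%) and 12 in favour of NEB (21.1%). Cells did not overlap for 1 gene higher in G&T (4.83% over all genes) and 2 higher in NEB (1.55%). The median log2 ratios of the 60 genes, 0.07, 0.40 and 0.70, stood beside 0.07, 0.43 and 0.47 over all genes. The Arp2/3 complex, which starts branched filaments, had 9 genes counted, of which 0 were past 2-fold in favour of Takara over G&T and 1 in favour of G&T. Of the 6 nonmuscle myosin II genes, the motors that pull on filaments, 0 were past 2-fold between Takara and G&T. The 12 genes of depolymerising and monomer-binding proteins, a list without the 10 genes, had 3 past 2-fold in favour of Takara over G&T and 0 in favour of G&T. Of 13 crosslinkers and membrane linkers, 2 were past 2-fold in favour of Takara over G&T and 2 in favour of G&T. For 9 nucleation factors the counts were 2 and 3, for 9 capping and severing proteins 2 and 1, and for 2 tropomyosins 0 and 0. Between Takara and NEB the counts in favour of each were 3 and 3 for the Arp2/3 complex, 2 and 2 for nucleation factors, 7 and 0 for depolymerising and monomer-binding proteins, 4 and 3 for capping and severing proteins, 4 and 3 for crosslinkers and linkers, 0 and 0 for tropomyosins and 1 and 0 for myosin II.

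ZYX, encoding the adhesion protein zyxin, and CFL2, the second cofilin, had the largest ratios in favour of Takara over G&T, at 26.0 against 3.89 CPM and 120 against 23.3 CPM. WASF2, an activator of the Arp2/3 complex, and DIAPH3, a formin, stood at 88.8 against 23.7 CPM and 74.5 against 20.4 CPM in favour of G&T. Their ratios were the largest in that direction only among genes with reads in at least 8 cells of the higher protocol. GSN, encoding the severing protein gelsolin, was at 466 CPM for Takara, 163 CPM for G&T and 16.1 CPM for NEB, and ZYX at 0.125 CPM in NEB. In favour of NEB were RDX, which encodes the membrane linker radixin (1007 CPM, against 105 CPM in Takara), and CAPZA1, a subunit of the capping protein (1906 CPM, against 362 CPM in Takara and 228 CPM in G&T). CFL2 was also higher in NEB, at 177 CPM, than in G&T, and so did not follow CFL1. SSH1, a phosphatase that activates cofilin, was at 15.2 CPM in G&T and had 0 reads in NEB.

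**Figure D5:**
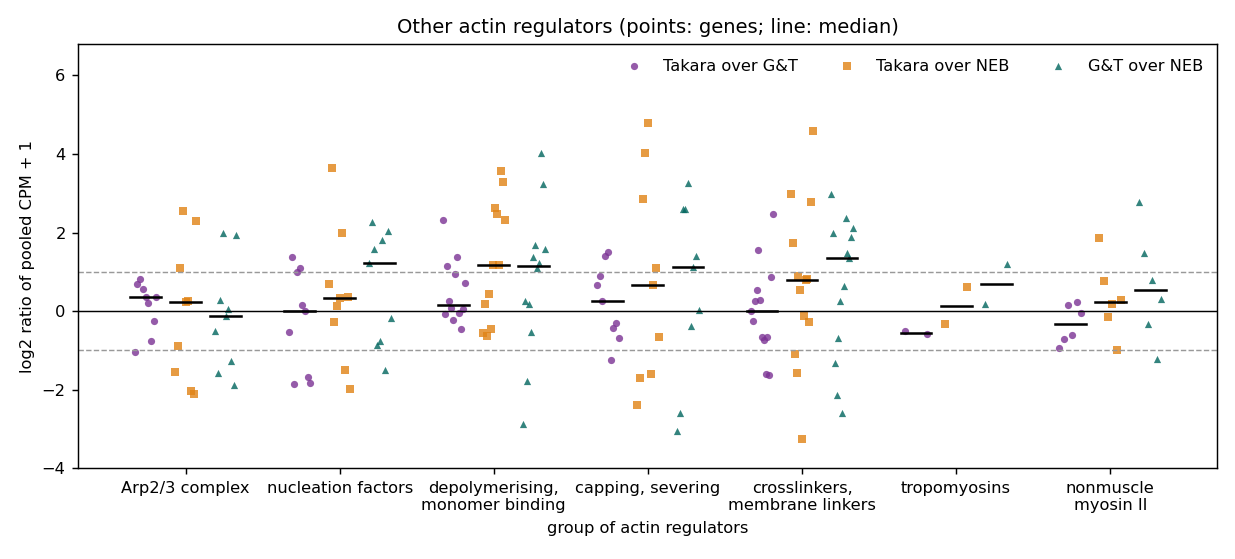
Each point is 1 counted gene of a list of actin regulators, plotted as the log2 ratio of pooled CPM plus 1 for a pair of protocols, with a black line at the median of the list. Most genes lie within the dashed 2-fold lines for Takara over G&T, 44 of 60, and the lists spread to both sides in the comparisons with NEB.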

How the data were processed

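The deposited tables hold raw read counts per gene for single T47D cells, 1 table per protocol. Per the study's methods and processing notes, the authors trimmed the reads with Trim Galore, aligned them to GRCh38 with STAR and took its gene counts, with no normalization, molecular identifiers or filter. The annotation release and the strand column are not given in the sources used here. A table lists 60279 genes and 92 ERCC spike-ins, and its 4 rows of unassigned reads stayed out of the totals. Of 40 cells, 33 met the thresholds of the study: at least 1000 genes, 600000 reads on genes and ERCC, and at most 30% mitochondrial and 25% ERCC reads. SMART-Seq3 cells were not analysed here.

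Counts were summed over the kept cells of a protocol and divided by the reads on genes (CPM), with 1 CPM added before log2 ratios; folds are ratios without it. The SD beside a ratio is the root of the summed variances of log2 CPM plus 1 over the cells of both protocols. Intervals are 95% exact Poisson or Clopper-Pearson intervals, and 0 reads were taken to allow up to 3. Reads are PCR copies, so intervals and limits cover counting error only. A gene was counted with a mean of at least 5 CPM over the 3 pooled levels. No test was made, since each protocol is 1 run, and cells are not replicates of it.

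The genes and the lists were chosen with earlier results of these data known. All 10 genes are named. From the lists of other regulators, the rule names the 2 genes with the largest pooled ratio for each pair and direction among those with reads in at least 8 cells of the higher protocol, and for likeness to ACTB the 3 genes with the highest mean of the 3 within-protocol Spearman coefficients. Transcripts, exons and sequences came from GENCODE release 44, which matched 56104 genes by identifier a release that may differ from that of the authors. The pooled 2-fold call alone was tested on simulated counts, with changes larger than 2-fold and ratios centred on their median, unlike those reported. Genes with as few reads as ACTA2, or the actinins in NEB, and the rule of cells that do not overlap were not simulated. Alternatives covered the cells kept, pooling, denominators, TMM factors from edgeR 4.0.16, ERCC scaling, the pseudocount, the threshold, pseudogene reads and leaving out each cell. Other steps used Python 3.11.15 with pandas 2.3.3, scipy 1.17.1 and Biopython 1.88.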

Additional observations from a re-analysis of the deposited data

Results flagged for a closer look

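Cells that the quality thresholds removed entered no comparison of the report, only the alternatives with all deposited cells, and 5 of the genes were looked at in them, chosen after seeing the data. Apart from counts of 0 in G&T cell C2, the values below rest on more than the 3 reads that a count of 0 allows. Other values on 3 reads or fewer are not given. ACTB stood at 1936 CPM in G&T cell C2 and 3424 CPM in G&T cell F1. In Takara cell C2, in which 91.3% of reads were on ERCC spike-ins, ACTB had 15 reads (979 CPM, 95% interval 548 to 1614), and in Takara cell F1, at 96.7% ERCC, it had 8 reads (1001 CPM, 432 to 1973). Both lay below the lowest kept Takara cell, at 11538 CPM. In NEB cell B2, at 28.4% ERCC, ACTB had 21 reads (46.6 CPM), and in NEB cell F2 it stood at 1806 CPM.

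NEB cell B2 also held 62 reads of ACTN1 (138 CPM), more than the 51 of all kept NEB cells together, and with all deposited cells the log2 ratio of ACTN1 for G&T over NEB was 2.74. G&T cell F1 had ACTN1 at 70.3 CPM. G&T cell C2 had 0 reads on ACTN1 and 0 on ACTN4, which allows up to 4.25 CPM for each. The lowest kept G&T cells stood at 31.1 CPM for ACTN1 and 38.8 CPM for ACTN4. ACTN4 had 12 reads in Takara cell C2, or 783 CPM (405 to 1368) of its 15325 reads on genes, whereas no kept Takara cell exceeded 17.1 CPM. It stood at 302 CPM in G&T cell F1 and at 14.5 CPM in NEB cell F2, on 8 reads.

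G&T cell C2, with 7898 genes detected and 33.7% mitochondrial reads, had TMSB4X at 18929 CPM and ACTG1 at 109 CPM, a high TMSB4X beside a low ACTG1 as in the kept cells D2, E2 and H1. TMSB4X was at 7049 CPM in G&T cell F1, 663 CPM in NEB cell B2, 4926 CPM on 7 reads in NEB cell F1 and 5568 CPM in NEB cell F2. ACTG1 was at 646 CPM in G&T cell F1, 457 CPM on 7 reads in Takara cell C2 and 746 CPM in NEB cell F2. The groups of kept cells hold 11 cells each and were not tested for single outlying cells.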

How the results depend on the processing

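No paired analysis was possible because no result comes from a test, and wells of the same name in different protocols share only that name. Of 1168 values under alternatives, 404 for the main results and 738 for single genes moved by less than the spread between cells. For counts of genes the limit was 1.5 times. Many alternatives left out a single cell, which can hardly move a pooled level by that spread. These numbers therefore do not measure robustness. The spread of ACTA2 between Takara cells (44.2 CPM) exceeded its pooled level (30.9 CPM), so even 14.4 CPM without A1 and E2 stayed within it. In NEB the ACTA2 level was 0 under every alternative. Scaling to ERCC reads shifted the median of all genes by 0.99 (Takara over G&T), 3.76 (Takara over NEB) and 2.76 (G&T over NEB) on the log2 scale. It put the ACTB log2 ratios at 2.62, 6.98 and 4.36, and turned PFN1 for G&T over NEB to 1.5, all in step with those shifts. ACTA2 over NEB has no value under this scaling. TMM factors shifted that median by at most 0.10. Raising the threshold to 4-fold left 1 gene higher in Takara and 2 higher in G&T when these protocols were compared. The comparison of Takara with NEB kept 6 genes higher in Takara and 0 higher in NEB. Between G&T and NEB, 2 genes stayed past it in G&T and 0 in NEB. No share of all genes at 4-fold is given beside these counts. Pseudocounts of 0.1 and 10 CPM moved ACTA2 for Takara over NEB to 8.28 and 2.03, and a pseudocount of 10 CPM took ACTN4 for Takara over NEB (0.85) and ACTA2 for G&T over NEB (0.21) below 2-fold. TMSB4X for Takara over G&T fell below 2-fold with the mean over cells (-0.91) and with TMM factors (-0.96). Leaving out 1 cell moved the ACTB log2 ratios within 1.54 to 1.70, 3.12 to 3.34 and 1.49 to 1.72 for the 3 pairs in the order above. Few reads limit ACTA2 outside Takara and both actinins in NEB, where 1 cell can set the level. With 1 run per protocol, no spread between runs was measured.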
